A study of Sus scrofa with 20 samples.

Results

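The heat shock proteins, J proteins, disulfide isomerases, CCT chaperonin subunits and the genes of the ER secretory route were compared between kidneys of pigs after neurologic death (ND) and kidneys of control pigs. Members were taken by gene symbol, as symbols of the array annotation that begin with HSP, DNAJ, PDIA, CCT, SEC, TMED, COPA, COPB, COPE, COPG, COPZ, SSR or SRP (CCT and SEC followed by a digit), with HSP90AB1 left out. This gave 96 genes of the 6765 with a single symbol on the array, each read by its brightest probe set over the 20 arrays. By known location 34 were cytosolic or nuclear, 6 mitochondrial and 51 in the ER or on the route to the Golgi. Another 4 share only the prefix (SEC14L1, SEC14L2, SRPX2 and HSPB11), and HSP70.2 was kept apart because its symbol is in no class. RefSeq gives HSPA1A and HSPA1B as synonyms of HSP70.2, the stress-inducible HSP70. The 10 ND pigs had the burr hole, catheters and anaesthesia of the controls and, in addition, inflation of a balloon under the dura until ND was established. The 10 control pigs had that surgery and anaesthesia alone. Pigs of both groups were ventilated for 6 h and were given boluses of 0.9% saline (2 cc/kg) to hold the mean arterial pressure above 35 mmHg, and kidney tissue was then snap frozen. The labels used here give no breed, sex or age. Animals are named by group and number, as ND_47 or Control_199.

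Cytosolic HSP70 chaperones bind unfolded stretches of client proteins, J proteins deliver clients to them and start their ATP cycle, and the CCT ring folds actin and tubulin. Proteins meant for secretion or for membranes enter the ER through the signal recognition particle and the SEC61 channel, and are folded there by HSPA5 (BiP), HSP90B1 (GRP94) and the disulfide isomerases. COPII coats then carry cargo out of the ER, and COPI coats bring escaped ER residents back. The kidney's tubule cells use this route for their transporters, and heat, ischaemia or ER stress raises many of these chaperones.

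Values were log2 signals, and their precision is limited by the number of arrays; array medians lay at 5.09 to 5.35. A difference is the ND mean less the control mean of the log2 signal (n = 10 animals per group). Adjusted p-values are from limma with Benjamini-Hochberg adjustment over all 23999 probe sets, and a gene passed at an adjusted p under 0.05. Background was set at 2.79, the highest signal of array controls for which kidney has no RNA. Of the 96 members, 91 read above it on all arrays, and 2, HSPB3 and COPB2 (named here for that reading alone), read at background on all arrays. All 9 measured proximal tubule markers read above background in kidney tissue of both groups, with a summed level of 86.9 to 102 in ND and 99.0 to 104 in control animals. ND arrays had higher medians than control arrays by 0.089, and lower signals of the BioB hybridization control by 0.36 (permutation p = 0.00641 and 0.0022, two-sided). In tissue of mixed cells, fewer cells of a type and less RNA per cell cannot be told apart.

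The share of members that changed was close to that of all genes, and the changes were small. SEC23A, a COPII coat protein, rose, and 9 members fell: the ER genes SSR3, SEC24D and COPG1, the mitochondrial J proteins DNAJC11, DNAJA3 and DNAJC19, the cytosolic J protein DNAJC24, and SEC14L1 and SEC14L2 among those that share only a prefix. That is 10.4% of the members, against a background of 9.99% of all 6765 genes. Of all genes 5.44% were called higher and 4.55% lower. The 10 changes measured 0.29 to 0.56 in size on the log2 scale, or 1.22- to 1.48-fold. The median difference over all members was -0.045, and 59 of them were below 0. Over all genes it was -0.017. With each array brought to 1 common median, 29 of 96 members passed, 2 higher and 27 lower, beside 30.3% of all genes (5.97% higher and 24.3% lower), so the balance of higher and lower calls moved with that scaling. No member had values that did not overlap between the groups, which 0.591% of all genes had.

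**Figure D1:**
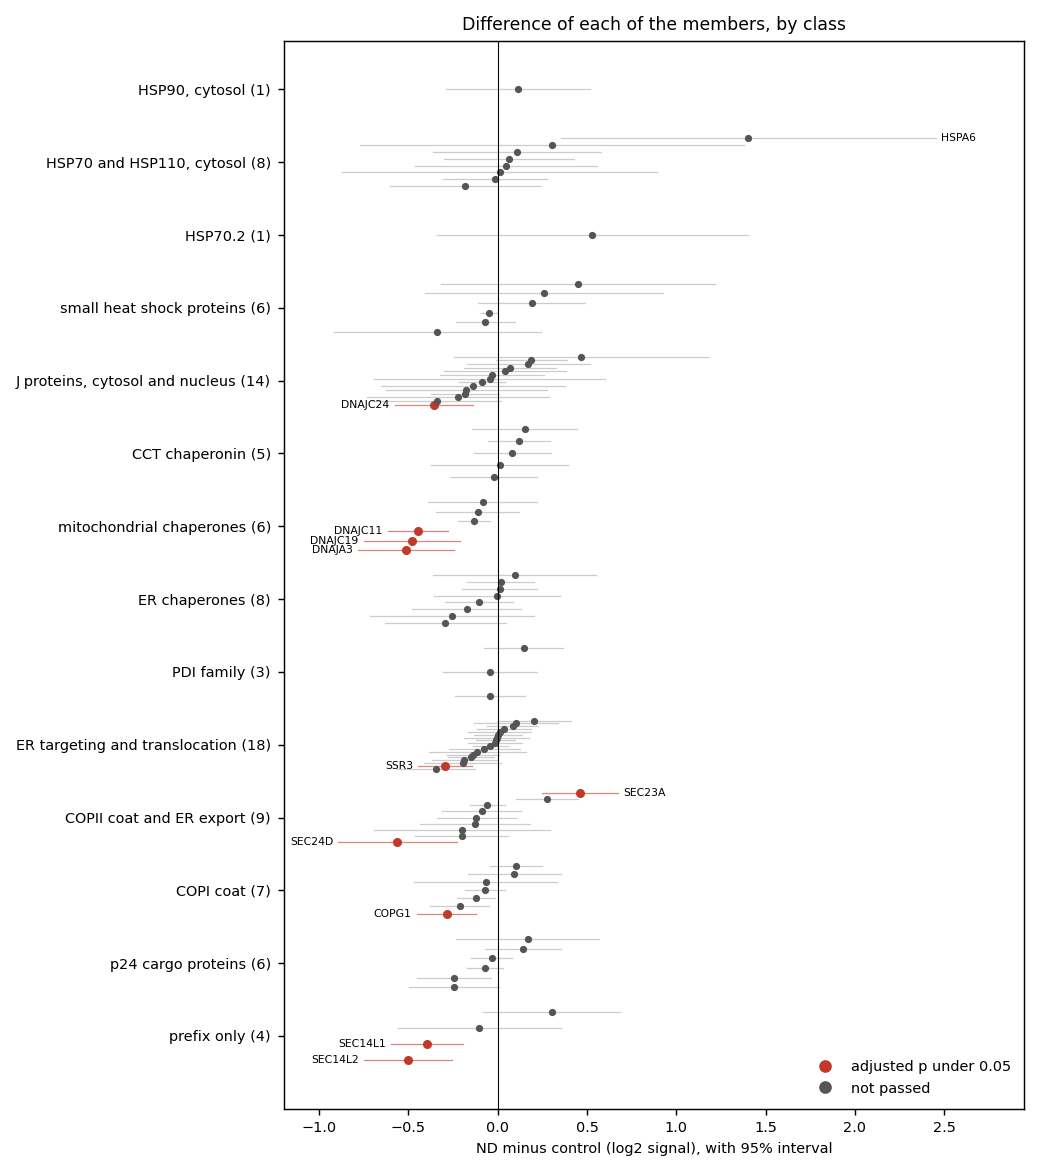
ND minus control difference (log2 signal) of each of the 96 members, one point per gene with its 95% interval, grouped by class with the number of genes in brackets. Red points passed the test. SEC23A is the 1 red point right of 0, all 6 mitochondrial genes lie left of 0, and HSPA6 has the largest difference and a wide interval.

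By location, 4 of 51 ER and secretory members passed (7.84%), 1 higher and 3 lower, with a median difference of -0.068. Of 34 cytosolic members 1 passed (2.94%), and the median was 0.026, or -0.028 without ND_47 and -0.063 with arrays brought to 1 common median. Of 6 mitochondrial members 3 passed, all lower, and the median was -0.29. These shares are descriptions beside the background of 9.99%, and their differences were not tested. Of the 86 members that did not pass, 77 differed by less than 0.3, and for 60 the 95% interval of the difference lay within 0.5 either way.

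Entry into the ER was represented by 18 genes, of which SSR3 fell and 17 did not pass. SSR3 is the gamma subunit of the translocon-associated protein (TRAP) complex, which sits beside the SEC61 channel and helps some proteins through it. Its signal ranged between 10.92 and 11.50, with a median of 11.18, in ND animals, and between 11.26 and 11.64, with a median of 11.55, in control animals. The groups overlapped, with 6 ND animals below all controls and 9 below the control mean. The difference was -0.29 ± 0.072 (SE; adjusted p = 0.0169). SRP14, an RNA-binding subunit of the signal recognition particle, came next, at -0.35 with an adjusted p of 0.0507, and the receptor subunit SRPRA was at -0.15 (adjusted p = 0.126). The other SSR genes measured, SSR2 and SSR4, were named after their values were seen. They differed by -0.016 and 0.20 (adjusted p = 0.889 and 0.177). The channel subunits did not pass: SEC61B differed by 0.0016 (95% interval -0.13 to 0.14), SEC61A1 by -0.075 (-0.28 to 0.13) and SEC61G by -0.20 (-0.41 to 0.018). SEC63, the J protein that couples the channel to HSPA5, differed by 0.035 (-0.11 to 0.18), and SRP54, the subunit that binds the signal sequence, by -0.042 (-0.14 to 0.056). Dimmer probe sets of SEC63 gave 0.34 and 0.54 (adjusted p = 0.220 and 0.233).

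Export from the ER held changes in both directions. SEC23A, which forms the inner COPII coat with SEC24 proteins, had signals of 10.15 to 10.67 with a median of 10.54 in ND animals, against 9.75 to 10.77 with a median of 9.99 in control animals. All 10 ND animals lay above the control mean, but none above Control_199, the highest of all 20. The difference was 0.46 ± 0.10 (SE; 1.37-fold; adjusted p = 0.00964), and a dimmer probe set of SEC23A gave 0.48 (adjusted p = 0.0167). Without Control_199 it was 0.54 (adjusted p = 9.08e-05).

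SEC24D, one of the SEC24 proteins that select the cargo, went the other way. Its signal was 8.25 to 9.21 with a median of 8.92 in ND animals, against 8.77 to 10.06 with a median of 9.40 in control animals. The difference was -0.56 ± 0.16 (SE; adjusted p = 0.0365), the largest in size of the 10 changes, and all 10 ND animals lay below the control mean and 4 below all controls. SEC23B, the second SEC23 gene, differed by -0.13 (95% interval -0.43 to 0.18). SEC31A, of the outer coat, differed by -0.059 (-0.16 to 0.039). SEC22C, a relative of the fusion protein SEC22, read near background, with means of 3.99 ± 0.13 in ND and 3.71 ± 0.24 in control animals (SD, n = 10 each), and its difference of 0.28 had an adjusted p of 0.0521.

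In the COPI coat, which returns cargo from the Golgi, COPG1 fell and 6 of 7 genes did not pass. COPG1, the gamma subunit, read 9.30 to 10.004 with a median of 9.81 in ND animals, against 9.75 to 10.28 with a median of 10.09 in control animals. All 10 ND animals were below the control mean, ND_31 lowest, and 3 were below all controls. The difference was -0.29 ± 0.079 (SE; adjusted p = 0.0335). COPZ1, the zeta subunit, was at -0.21 (adjusted p = 0.101), with ND_47 at 10.64 above the 9.77 to 10.17 of the other ND animals, and without ND_47 it was at -0.27 (adjusted p = 0.00629). COPA, the alpha subunit, was at -0.12 (adjusted p = 0.130). In the other direction, COPB1 was at 0.10 (adjusted p = 0.293). COPG2, named after its values were seen, was at 0.094 (adjusted p = 0.602).

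None of the 6 p24 genes passed, which encode TMED proteins that pack cargo into both coats, and 1 had an unadjusted p under 0.05. TMED4 was at -0.25 (adjusted p = 0.123) by its brightest probe set, and at -0.55 (adjusted p = 0.00107) by a dimmer one. TMED2 differed by -0.035 (95% interval -0.15 to 0.080) and TMED10 by -0.073 (-0.17 to 0.028).

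All 3 mitochondrial J proteins on the array fell, while the 3 mitochondrial chaperones proper did not pass. DNAJC11, which is attached to the complex that shapes the cristae, had 8.11 to 8.64 with a median of 8.39 in ND animals, against 8.47 to 9.07 with a median of 8.81 in control animals. 7 ND animals lay below all controls, and Control_199 was the lowest control. The difference was -0.45 ± 0.081 (SE; adjusted p = 0.00245), and no member had a smaller p. A dimmer probe set of DNAJC11 read at background in both groups, with means of 2.16 in ND and 2.17 in control animals.

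DNAJA3 (TID1), the partner of the mitochondrial HSP70, had 7.71 to 8.47 with a median of 8.25 in ND animals, against 8.19 to 9.10 with a median of 8.75 in control animals. Its 2 lowest controls, Control_157 and Control_156, lay within the ND range. The difference was -0.51 ± 0.13 (SE; adjusted p = 0.0187). DNAJC19, a subunit of the motor that pulls proteins through the inner membrane, had 9.93 to 10.99 with a median of 10.86 in ND animals, against 10.83 to 11.49 with a median of 11.23 in control animals. ND_47 was the lowest of all animals, and 5 ND animals lay below all controls. The difference was -0.48 ± 0.13 (SE; adjusted p = 0.0277), and without ND_47 it was -0.39 (adjusted p = 0.0251).

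HSPA9, the mitochondrial HSP70 itself, read 13.11 to 13.50 with a median of 13.21 in ND animals, against 13.26 to 13.47 with a median of 13.39 in control animals. It differed by -0.13 ± 0.044 (SE; adjusted p = 0.0712), and without ND_47, its highest array, by -0.16 (adjusted p = 0.0107). HSPD1 and HSPE1, the ring and the lid of the mitochondrial chaperonin, differed by -0.11 (95% interval -0.35 to 0.12) and -0.085 (-0.39 to 0.22). Across all compartments 4 of 22 J proteins fell (18.2%, beside 4.55% of all genes) and none rose, and with a term in the fit for animal numbers up to 100 against above 1 of the 4, DNAJC11, passed.

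The fourth was DNAJC24, which acts in making diphthamide on an elongation factor. It had 8.44 to 9.15 with a median of 8.77 in ND animals, against 8.83 to 9.45 with a median of 9.17 in control animals, and 6 ND animals lay below all controls. The difference was -0.36 ± 0.10 (SE; adjusted p = 0.0455). Of the genes that only share a prefix, SEC14L1 differed by -0.40 ± 0.096 (adjusted p = 0.0155) and SEC14L2, a lipid-binding protein, by -0.50 ± 0.12 (SE; adjusted p = 0.0131). Neither is a chaperone or part of a coat. SEC14L2 read 5.53 to 6.42 in ND animals and 6.17 to 6.89 in control animals, and SEC14L1 read 9.48 to 10.27 in ND animals and 9.97 to 10.56 in control animals. Without these prefix-only symbols 8 of 92 members passed (8.70%).

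**Figure D2:**
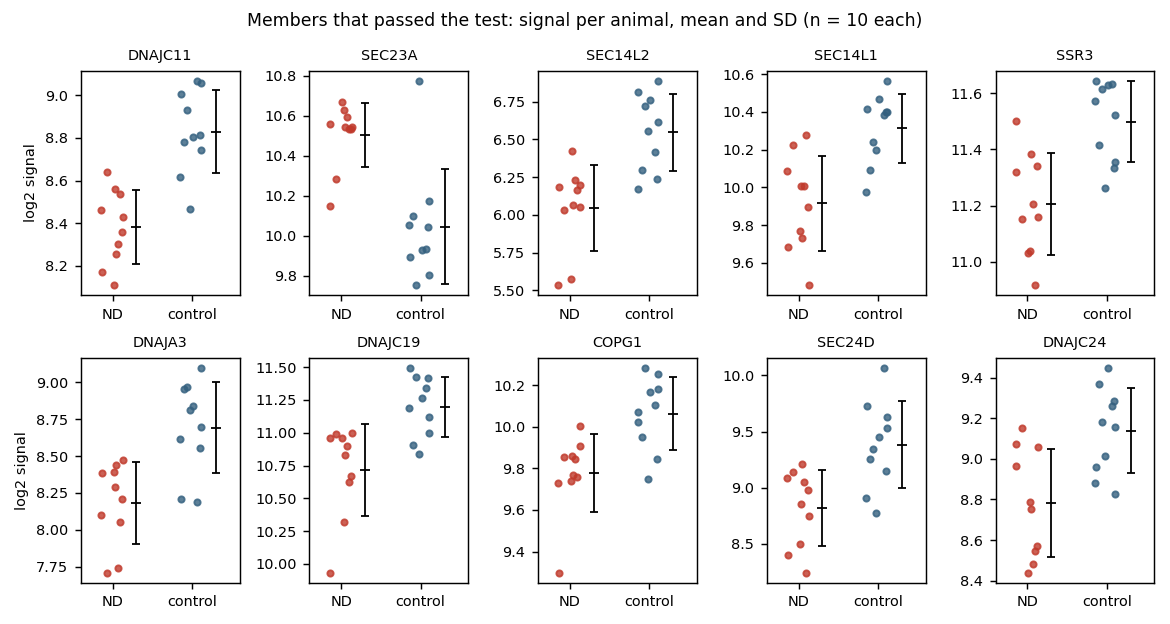
Signal (log2) of the 10 members that passed, one point per animal in ND (left) and control (right), with the mean and SD of 10 animals beside the points. Ranges overlap in every panel. In the SEC23A panel 1 control, Control_199 at 10.77, lies above all ND animals.

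For 6 of the 10 genes the control nearest to the ND animals was Control_199. The same animal was nearest for 30.2% of all 676 genes called. Without Control_199 all 10 were called, and no other member was. Without ND_47 the 10 were called as well, joined by COPZ1, HSPA9, SRP14 and SEC22C (14 of 96 members, against 678 of the 6765 genes). Leaving out 1 animal at a time kept 6 of the 10 in each case. DNAJC19 was lost without Control_197 (adjusted p = 0.0508), and COPG1 without any one of ND_86, ND_194, Control_155, Control_157, Control_187, Control_190 or Control_197 (adjusted p up to 0.0606). SEC24D was lost without any one of ND_31, ND_86, ND_194, ND_198, Control_155, Control_156, Control_157, Control_187, Control_190 or Control_197 (up to 0.0661). DNAJC24 was lost without any one of ND_01, ND_86, ND_92, ND_100, ND_193, ND_194, Control_02, Control_155, Control_157, Control_184, Control_190 or Control_197 (up to 0.0842).

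Animal numbers were uneven between the groups, with 7 of 10 ND animals and 1 of 10 control animals numbered up to 100. With a term for that split DNAJC11 (-0.50, adjusted p = 0.0145), SEC23A (0.52, adjusted p = 0.0461) and SEC14L1 (-0.51, adjusted p = 0.0274) passed, 3.12% of the members against 2.78% of all genes. The other 7 had adjusted p-values up to 0.343 with that term. Among the last-numbered 3 ND and 5 control animals, from Control_184 on, all 10 kept their direction, and no member passed in limma, where 0.325% of all genes did. An unadjusted p under 0.05 was found there for 19 of 96 members, beside 1202 of all 6765 genes. Markers of some other cells differed between the groups too, beside 9.99% of all genes called. Of 7 markers of leukocytes in general, none at background, 5 rose and none fell, and their summed level was 42.6 to 53.8 in ND and 38.3 to 45.0 in control animals. Of 9 monocyte and macrophage markers, none at background, 2 rose and 3 fell (CD163, MRC1 and CD14), with a summed level of 58.7 to 75.0 in ND and 62.6 to 69.2 in control animals. Of 8 T and NK cell markers, with CD4 at background on all arrays, 4 rose and none fell, with a summed level of 26.1 to 38.3 in ND and 23.2 to 27.97 in control animals. CD3D, CD3E and CD3G read at background in all 10 control animals and in 8, 5 and 6 ND animals, and CD3E was among the 4 that rose. Of 9 proximal tubule markers 4 fell and none rose. The part of these cells in the changes above was not tested.

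The ER chaperones and disulfide isomerases did not pass in any member. The 8 genes classed as ER chaperones, of its lumen or membrane, lay between -0.29 and 0.095, and 3 disulfide isomerases between -0.045 and 0.15. None of the 11 had an unadjusted p under 0.05. HSPA5, the main ER chaperone and a sensor of unfolded protein, read 13.03 to 14.56 with a median of 13.48 in ND animals, against 12.85 to 14.09 with a median of 13.42 in control animals. ND_47 was highest and the ranges lay on top of each other. Its difference was 0.095 (95% interval -0.36 to 0.55; adjusted p = 0.775). HSP90B1, the ER form of HSP90, read 12.21 to 13.31 in ND animals and 12.14 to 13.36 in control animals, a difference of -0.0049 (-0.36 to 0.35). A dimmer probe set of HSP90B1 gave 0.39 (adjusted p = 0.374).

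DNAJB9, a J protein that holds the stress sensor IRE1 in check, had the largest ER chaperone difference in size, at -0.29 (adjusted p = 0.218), and its 2 dimmer probe sets gave -0.22 and -0.38 (adjusted p = 0.381 and 0.0583). DNAJB11, a J partner of HSPA5, was at -0.26 (adjusted p = 0.410). There ND_47 read 9.62 against 7.55 to 8.59 in the other ND animals, and without it the difference was -0.42 (adjusted p = 0.123). HSPA13, an HSP70 of microsomes, was at -0.17 (adjusted p = 0.402), and a dimmer probe set at -0.39 (adjusted p = 0.0469). Of the isomerases PDIA6 differed by 0.15 (95% interval -0.075 to 0.37), PDIA4 by -0.044 (-0.31 to 0.22) and PDIA3, which acts on glycoproteins, by -0.045 (-0.24 to 0.15).

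None of 8 cytosolic genes classed with HSP70 and HSP110 passed, and 1, HSPA6, had an unadjusted p under 0.05. The class also holds HSPBP1, which binds HSP70 and is not itself an HSP70 or HSP110. HSPA6 read above all controls in a subset of the ND animals. HSPA6 is an HSP70 that is nearly silent in unstressed cells and strongly induced by heat in humans. All controls read at or just above background, between 2.66 and 2.97. ND_47 read 7.92, ND_194 5.75, ND_92 4.95, ND_100 4.36, ND_193 4.04 and ND_01 3.87, while ND_198, ND_86, ND_22 and ND_31 read 3.04, 2.91, 2.81 and 2.81. So 7 of 10 ND animals lay above all controls, and 3 within the control range. The SD was 1.63 in ND and 0.10 in control animals (n = 10 each), higher than in 99.4% and 18.0% of all genes. The difference of 1.40 ± 0.50 (SE; 95% interval 0.36 to 2.45) was the only one of at least 1 among the members, and it did not pass (adjusted p = 0.0937). Without ND_47 it was 0.996 (adjusted p = 0.0719).

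HSP70.2 did not share that separation. It read 11.14 to 14.53 with a median of 13.44 in ND animals, against 11.48 to 14.54 with a median of 12.78 in control animals. ND_47 and Control_199 were nearly equal at the top, although HSPA6 read 7.92 in ND_47 and 2.97 in Control_199. The difference was 0.53 ± 0.42 (SE; 95% interval -0.34 to 1.40; adjusted p = 0.371), and both dimmer probe sets gave 0.55 and 0.69 (adjusted p = 0.359 and 0.335). HSPA8, the constitutive HSP70, read 13.15 to 15.27 in ND animals and 13.21 to 14.50 in control animals, a difference of 0.044 (-0.47 to 0.55). Dimmer probe sets of HSPA8 gave -0.28 to -0.17 (adjusted p = 0.140 to 0.451). The intervals of HSP70.2 and HSPA8 leave room for changes as large as those of the members that passed.

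**Figure D3:**
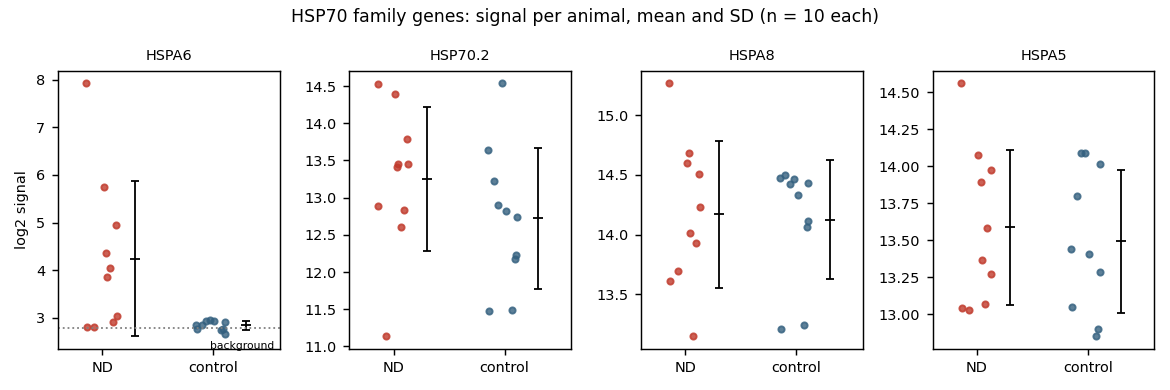
Signal (log2) of HSPA6, HSP70.2, HSPA8 and HSPA5, one point per animal in ND (left) and control (right), with mean and SD of 10 animals; the dotted line in the HSPA6 panel is the background of 2.79. HSPA6 spreads up to 7.92 in ND animals while all controls sit by the line, and the other genes overlap throughout.

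Other cytosolic chaperones had wide spreads in both groups. HSPH1, an HSP110 that exchanges the nucleotide of HSP70, read 9.15 to 13.45 in ND animals and 9.16 to 12.85 in control animals, and its SD of 1.24 in ND and 1.12 in control animals exceeded that of 98.4% and 98.8% of all genes. Its difference was 0.30 (95% interval -0.77 to 1.38; adjusted p = 0.690). DNAJA1, a J partner of HSPA8, was at 0.47 (-0.24 to 1.18), DNAJB1, the heat-inducible HSP40, at 0.17 (-0.17 to 0.51), and DNAJB4 at 0.041 (-0.30 to 0.38). HSPA4, another HSP110 relative, was at 0.11 (-0.37 to 0.58), and HSPA2, best known from testis, at -0.016 (-0.31 to 0.28). HSP90AA1, the inducible cytosolic HSP90, was at 0.11 (-0.29 to 0.51) by its brightest probe set, and its 4 dimmer ones disagreed in sign, from -0.74 (adjusted p = 0.0269) to 0.58 (adjusted p = 0.356).

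None of the 6 small heat shock proteins passed, with differences of -0.34 to 0.45 and 1 unadjusted p under 0.05 (HSPB3, at background). HSPB1 (HSP27), which holds unfolded proteins and protects actin, read 9.78 to 12.01 in ND animals and 9.47 to 12.27 in control animals, a difference of 0.26 (95% interval -0.41 to 0.93). HSPB8, the partner of BAG3, was at 0.45 (adjusted p = 0.386). It was led by ND_47 at 7.22, and by Control_187 at 6.17 in the controls, and without ND_47 the difference was 0.19. HSPB6 was at -0.34 (-0.92 to 0.24). None of the 5 CCT chaperonin subunits passed, or had an unadjusted p under 0.05, and they lay between -0.021 and 0.15. CCT2 differed by 0.12 (-0.057 to 0.29), CCT4 by 0.15 (-0.14 to 0.45) and CCT7 by 0.082 (-0.13 to 0.30).

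The SD between animals was larger for the cytosolic genes than for the ER genes, in both groups. The median SD over cytosolic members was 0.44 in ND and 0.33 in control animals, against 0.22 and 0.20 over ER and secretory members and 0.29 and 0.23 over all genes. ND_47 was the highest ND animal for 48 of the 96 members (50.0%), and for 23.9% of all genes. Control_199 was the highest control for 21 members (21.9%), and for 10.3% of all genes. In controls the high readings of Control_199 took in 13 of 34 cytosolic, 3 of 6 mitochondrial and 3 of 51 ER and secretory members. Among the ER ones were HSPA5 and HSP90B1. In ND animals the high readings of ND_47 took in 23 of 34 cytosolic, 2 of 6 mitochondrial and 21 of 51 ER and secretory members. At the other end, ND_22 had the lowest HSP70.2 of the ND animals and Control_156 of the controls.

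**Figure D4:**
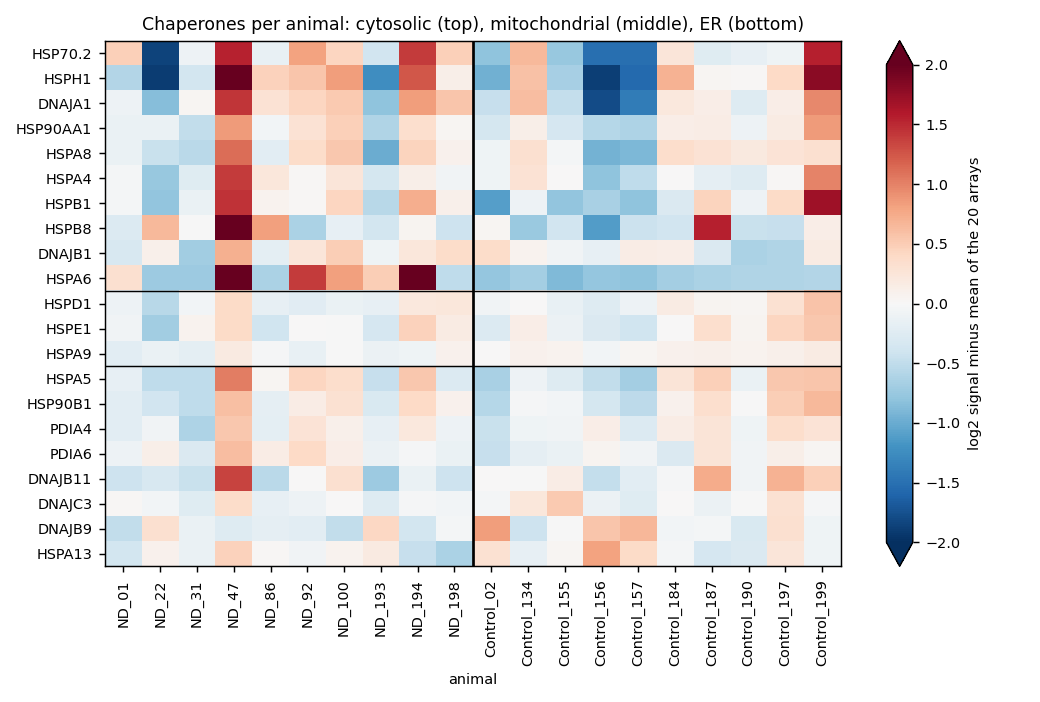
Signal of 21 chaperones per animal, as log2 signal minus the gene's mean over the 20 arrays, with cytosolic genes and HSP70.2 on top, mitochondrial in the middle and ER at the bottom, and the ND animals left of the vertical line. ND_47 is high in nearly every row, Control_199 in most cytosolic rows but not in HSPA6, and Control_156 and Control_157 are low in HSP70.2, HSPH1 and DNAJA1. Control_199 also lies above the mean in HSPD1, HSPE1, HSPA5 and HSP90B1. The colour scale stops at 2 either way.

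Several chaperones went together from animal to animal in both groups. In ND animals HSPA5 and HSP90B1 had a Pearson r of 0.93 (permutation p = 0.00021, adjusted 0.00105) and a Spearman rho of 0.94 (p = 0.00019), and in control animals r was 0.97 (p = 1e-05, the lowest value printed for 100000 permutations, adjusted 0.0002) and rho 0.98 (p = 3e-05). Without the 2 animals farthest from the median of HSPA5, r was 0.84 in ND and 0.96 in control animals. HSPA5 with PDIA4 gave r = 0.87 in ND animals (p = 0.00084; rho = 0.71, p = 0.0269; r = 0.72 without 2 animals) and r = 0.86 in control animals (p = 0.00204; rho = 0.87, p = 0.00208; r = 0.77 without 2 animals). All p-values here come from two-sided permutation tests within a group, and adjusted ones cover 20 tests. These genes share the array they were read on, and with other array scalings 13 or 14 of the 20 passed, as 13 did with the values as deposited.

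HSPA8 with HSPH1 gave r = 0.89 in ND animals (permutation p = 0.00077; rho = 0.88, p = 0.00163; r = 0.79 without 2 animals) and r = 0.87 in control animals (permutation p = 3e-05; rho = 0.95, p = 7e-05; r = 0.83 without 2 animals). HSPA8 with DNAJB1, the inducible J protein that works with it, gave r = 0.76 in ND animals (permutation p = 0.0102, adjusted 0.0156; rho = 0.81, p = 0.00672; r = 0.78 without 2 animals). In control animals it gave r = -0.19 (permutation p = 0.628; rho = 0.018, p = 0.973; r = -0.23 without 2 animals). The difference between the groups was not tested. Across compartments HSPA5 with HSPA8 gave r = 0.92 in ND animals (permutation p = 0.00011; rho = 0.87, p = 0.00227; r = 0.85 without 2 animals) and r = 0.75 in control animals (permutation p = 0.00606; rho = 0.77, p = 0.0125; r = 0.75 without 2 animals). HSPA5 with the channel subunit SEC61B passed in neither group, with r = 0.19 in ND animals (permutation p = 0.594; rho = 0.21, p = 0.562; r = -0.12 without 2 animals) and r = 0.078 in control animals (permutation p = 0.837; rho = -0.20, p = 0.582; r = -0.27 without 2 animals). SEC23A with SEC24D, which changed in opposite directions between the groups, gave r = -0.44 in ND animals (permutation p = 0.187; rho = -0.36, p = 0.314; r = -0.093 without 2 animals) and r = -0.58 in control animals (permutation p = 0.0773; rho = -0.44, p = 0.205; r = -0.37 without 2 animals).

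**Figure D5:**
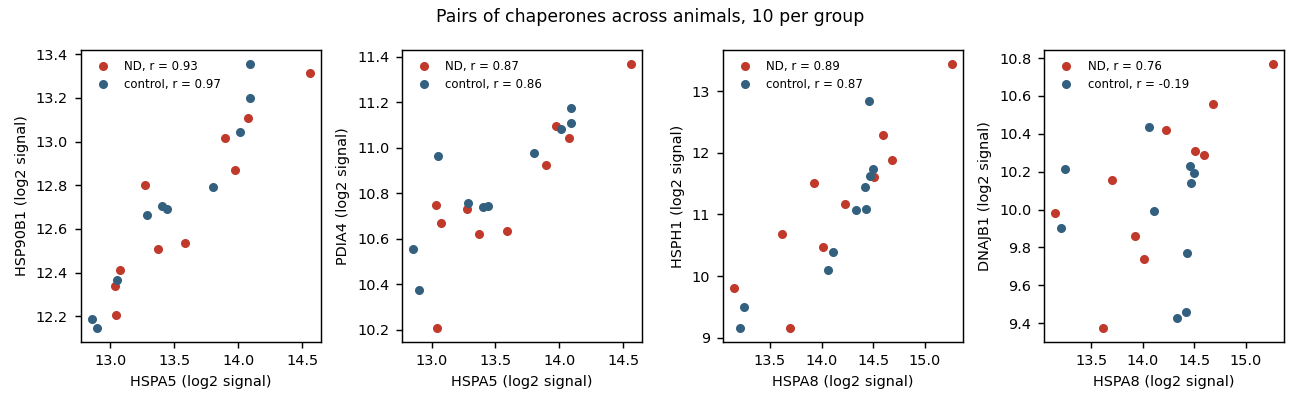
Signals (log2) of 4 pairs of chaperones, one point per animal, ND in red and control in blue, with Pearson's r per group (n = 10 each). HSPA5 rises with HSP90B1 and with PDIA4 in both groups, HSPA8 with HSPH1 in both, and HSPA8 with DNAJB1 in ND (r = 0.76) but not in control animals (r = -0.19), a difference that was not tested.

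Genes that work with these families were read from 7 lists. The shares below stand beside the 9.99% of all genes that were called, 5.44% higher and 4.55% lower, and no list was tested as a whole. In ER to Golgi transport 5 of 33 measured genes fell and none rose (15.2%), and 25 of 33 differences were below 0, as were 54.3% of those of all genes. GBF1, which switches on the small GTPase that recruits the COPI coat, had 4.56 to 6.07 with a median of 5.39 in ND animals, against 5.83 to 6.39 with a median of 6.26 in control animals, and 8 ND animals lay below all controls. The difference was -0.79 ± 0.14 (SE; adjusted p = 0.00236). That GTPase, ARF1 (named after its values were seen), was at -0.18 (adjusted p = 0.0207). SAR1B, the GTPase that starts the COPII coat, had 11.90 to 13.17 in ND animals, against 12.92 to 13.68 in control animals, a difference of -0.59 ± 0.15 (SE; adjusted p = 0.0183), while its twin SAR1A was at -0.10 and did not pass. MCFD2, a cargo receptor subunit for clotting factors, was at -0.67 ± 0.12 (adjusted p = 0.00227) and TRAPPC2, of the tethering complex at the Golgi, at -0.62 ± 0.13 (SE; adjusted p = 0.00519). With the term for animal number TRAPPC2 (adjusted p = 0.0452) and ARF1 (0.0171) passed, and GBF1 (0.0746), MCFD2 (0.0808) and SAR1B (0.121) did not.

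Of 26 ER folding genes outside the families TMX2 fell, ERO1A rose and 24 did not pass. TMX2, a thioredoxin-like membrane protein, had 7.76 to 8.46 in ND animals and 8.34 to 9.30 in control animals, 8 ND animals being below all controls, and differed by -0.57 ± 0.11 (SE; adjusted p = 0.00414, and 0.0230 with the term for animal number). ERO1A, the oxidase that recharges the disulfide isomerases, had 4.92 to 6.32 in ND animals and 4.57 to 5.32 in control animals, a difference of 0.54 ± 0.15 (SE; adjusted p = 0.0386). Its call was lost on leaving out any of 8 single animals, and with the term for animal number (adjusted p = 0.152). The lectin chaperones CALR and CANX were at -0.051 (95% interval -0.52 to 0.42) and -0.0066 (-0.17 to 0.15), and HYOU1, the HSP110 of the ER, at -0.11 (-0.65 to 0.43). In degradation from the ER RNF5, a ubiquitin ligase of its membrane, fell (-0.33, adjusted p = 0.0231, and 0.0921 with the term for animal number) and 13 of 14 genes did not pass. Of 19 genes of signal peptidase and N-glycosylation TRAM1, a partner of the channel, rose by 0.18 (adjusted p = 0.0428), a call lost on leaving out any of 15 single animals and with the term for animal number (adjusted p = 0.244), and 18 did not pass.

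Of 9 measured genes listed with the unfolded protein response, not all of them its regulators, 3 rose (DDIT3, ATF4 and ASNS, an amino acid response gene). In the same list 1 fell (TXNIP) and 5 did not pass, XBP1 among them at -0.077 (95% interval -0.27 to 0.12). DDIT3 (CHOP), a transcription factor of the stress response, had 7.81 to 8.95 in ND animals and 6.32 to 8.17 in control animals, a difference of 1.19 ± 0.21 (SE; adjusted p = 0.00226, and 0.0101 with the term for animal number). With that term TXNIP passed as well (adjusted p = 0.0473), and ATF4 (0.0621) and ASNS (0.226) did not. In the same animals HSPA5 differed by 0.095. Of 29 heat shock regulators and cytosolic co-chaperones FKBP5 and BAG3 fell and 27 did not pass, with HSF1, the heat shock transcription factor, at -0.16 (adjusted p = 0.155). BAG3, an HSP70 nucleotide exchange factor, had 9.78 to 11.61 in ND animals and 11.49 to 12.14 in control animals. None of 7 genes of mitochondrial protein quality control passed, where 3 had an unadjusted p under 0.05, as had 2033 of all 6765 genes. GRPEL1, the exchange factor of HSPA9, was at -0.25 (adjusted p = 0.0887, and 0.0121 with the term for animal number).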

How the data were processed

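Total RNA of kidney tissue, 250 ng per sample, was labelled as biotin cRNA and hybridised to 1-colour arrays, per the labels' protocols, which mention 2 specimens per animal. Titles give 1 array for each animal number, and each array was taken as 1 animal. The authors' deposited table has 1 value for each probe set on each array. That these are log2 values was inferred from the deposited range of 0.88 to 16.2. Background correction, summarization, normalization and any scan date or batch are not given in the sources used here.

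The table held 24123 probe sets, 124 of them array controls. Of the other 23999, 10069 had 1 gene symbol in the platform annotation, 198 several and 13732 none here, and probe sets with several named no gene. Of the 96 members 95 had their Entrez ID in RefSeq, and 0 symbols changed. Each gene was read by its brightest probe set (mean of the 20 arrays), and 36 members had several, not all of which are quoted here. limma 3.58.1 in R 4.3.3 (lmFit and eBayes, no trend, no covariate) was run on all 23999 probe sets and was first tested on simulated data. Two-sided permutation tests of 100000 resamples (scipy 1.17.1) served for correlations and array measures.

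The members, classes, gene lists and pairs were chosen with earlier results of these data known. Genes to be named were every member called, and the 3 with the smallest p and the brightest 1 of each class. To these came the 4 with the smallest p of each list and fixed genes of prior interest (61 members and 38 others in all). Not all of them are quoted in the text. Those left out were not called and had differences of either sign, as FKBP14 at 0.88 (adjusted p = 0.0591) and CRELD1 at -0.45 (adjusted p = 0.0928). Array scaling, array weights, dim probe sets, the variance model, the mean of a gene's probe sets, animal number, subsets of animals and thresholds were varied as alternatives. Sequence motifs were not analysed here.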

Additional observations from a re-analysis of the deposited data

Results flagged for a closer look

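Single animals stood apart from their group, by the gap to the nearest other animal against the group's range, in 26 cases over 99 genes, each gene tested in both groups. For a single test chance gives about 1 case in 20. These genes share their arrays and several go together, so the count cannot be set against that rate. ND_47 accounted for 13 of the 26, and ND_31 and Control_199 for 3 each. In ND_47 the gene was highest of its group in each case but SAR1B.

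Among cytosolic genes ND_47 read 13.2 for CCT4 (11.6 to 12.46 in the other ND animals), 12.3 for CCT7 (11.2 to 11.5), 8.61 for HSPBP1 (6.57 to 7.66), 7.22 for HSPB8 (3.99 to 5.45), 9.80 for DNAJC8 (9.14 to 9.47), 11.2 for HSPA4 (9.06 to 10.1) and 13.95 for HSP90AB1 (12.8 to 13.3). Of the ER genes it read 10.6 for COPZ1, 9.62 for DNAJB11, 8.02 for DNAJC3 (7.39 to 7.67) and 11.2 for SERPINH1 (8.49 to 9.90), a collagen chaperone. For ASNS, an amino acid response gene, ND_47 read 11.5 against 8.06 to 9.09 in the other ND animals, and for SAR1B it was lowest, at 11.9 against 12.52 to 13.17.

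ND_31 was lowest for COPG1 (9.30 against 9.73 to 10.004 in the other ND animals), SEC61A1 (9.45 against 9.91 to 10.4) and KDELR2 (9.41 against 9.66 to 9.93). Without ND_31 the COPG1 difference was -0.23 (adjusted p = 0.0314). ND_86 was highest for HSPA2 (5.47), ND_92 lowest for UBE2J2 (8.43) and ND_193 lowest for TRAPPC2 (6.60).

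Of the controls, Control_199 was highest for SEC23A (10.8 against 9.75 to 10.2 in the other controls), CCT7 (11.7 against 11.2 to 11.5) and HSP90AA1 (14.6 against 13.1 to 13.9). Control_187 was highest for HSPB8 (6.17) and Control_02 for HSPA2 (5.25). Control_190 was lowest for SRP54 (10.2 against 10.4 to 10.5) and Control_134 for MCFD2 (11.3 against 11.7 to 12.04). Without these animals no called gene among them lost its call.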

How the results depend on the processing

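All 10 called members kept their direction under all alternatives that were run. The counts of calls moved more, and the causes were not tested. With arrays brought to 1 common median, which moves the median of all genes to -0.11, 29 members passed (2 higher, 27 lower, against 1 and 9), ER and secretory members 1 higher and 16 lower (against 1 and 3), cytosolic 1 higher and 5 lower, and all genes 404 higher and 1644 lower (against 368 and 308); the ER median was -0.16 instead of -0.068. Quantile normalization kept the same 10. With the term for animal number 3 members passed (2 lower), with 0 lower among ER, 0 among cytosolic and 1 among mitochondrial members. Among animals from Control_184 on 0 passed in each group, higher or lower, by limma, where fewer animals enter. Array weights gave 14 lower members (7 ER), beside 378 lower of all genes (against 308). Gene means gave 5 lower ER members, and the trended, robust variance 0 cytosolic ones, beside 10.1% and 9.06% of all genes called. Without ND_47 and ND_92, 2 members were higher (both ER), 5 ER members lower and 0 cytosolic ones lower, beside 8.0% of all genes called. The filter on dim probe sets gave 2 higher members, both ER, and an adjusted p under 0.10 gave 3 (2 ER, 1 cytosolic). The shares of all genes called there, higher or lower, were 14.1% with the filter and 16.3% at an adjusted p under 0.10. Leaving out 1 animal at a time gave 7 to 14 called members, 1 to 2 higher and 6 to 12 lower: ER 1 to 2 higher and 1 to 5 lower, cytosolic 0 higher and 0 to 1 lower, mitochondrial 2 to 4 lower. The ER median then ran between -0.087 and -0.045, and the cytosolic one between -0.028 and 0.087. The count of all genes called moved as well, to 678 without ND_47 and 758 without Control_199. No paired analysis was possible because the groups share no animal numbers.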

Other observations

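Other pairs of members across animals were computed after the data had been seen, 6 tests in all with two-sided permutation p-values. HSPH1 with HSP70.2 gave Pearson r = 0.88 in ND animals (permutation p = 0.00093; rho = 0.81, p = 0.00703; r = 0.73 without the 2 animals farthest from the HSPH1 median) and r = 0.98 in control animals (permutation p = 1e-05, the lowest value printed; rho = 0.98, p = 5e-05; r = 0.96 without 2 animals). HSPH1 with DNAJA1 gave r = 0.97 in ND animals (permutation p = 1e-05; rho = 0.93, p = 0.00022; r = 0.94 without 2 animals) and r = 0.96 in control animals (permutation p = 1e-05; rho = 0.96, p = 1e-05; r = 0.93 without 2 animals). HSPH1 with HSP90AA1 gave r = 0.85 in ND animals (permutation p = 0.00254; rho = 0.89, p = 0.00123; r = 0.90 without 2 animals) and r = 0.97 in control animals (permutation p = 3e-05; rho = 0.89, p = 0.00096; r = 0.96 without 2 animals). Adjusted over the 6 tests the Pearson p-values were 2e-05 to 0.00254.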
